A study of Mus musculus with 6 samples.

Results

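The AP-1 genes Fos, Fosb, Fosl1, Fosl2, Jun, Junb, Jund, Atf3 and Batf3 were described by the accessible intervals within 50 kb of each gene in mouse embryonic fibroblasts (MEFs). The members were all intervals of the deposited consensus set that overlapped one of these 9 gene bodies, extended by 50 kb on both sides, by at least 1 base. They came to 286 of the 323483 intervals. The assay was ATAC-seq, which uses a transposase to cut and tag accessible DNA. The fibroblasts carried M2-rtTA, a doxycycline-dependent transactivator, together with a TetO-Myf6 transgene, and were heterozygous for both alleles. All cells spent 24 h in medium with 10 ng/mL bFGF. The Myf6 with F/R/C group (2 libraries) received doxycycline at 2 µg/mL with 5 µM forskolin, 5 µM RepSox and 3 µM CHIR99021. The Myf6 group (2 libraries) received doxycycline at 2 µg/mL alone, and the medium group (2 libraries) received none of these. Whether both libraries of a group stem from different cultures, and which promoter drives M2-rtTA, is not stated in the labels.

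The interval set was joined over the experiment and gives no value for any library or group. No comparison between the groups was made here, no value below has a replicate error, and the depth behind an interval is unknown. An interval marks a place where the joined set holds a peak, and the library it came from is not recorded. The fibroblast label was not checked, because intervals carry no level.

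AP-1 is a family of dimeric transcription factors whose subunits join through a leucine zipper and bind DNA through the basic region beside it. Fos proteins need a partner, usually a Jun protein, while Jun proteins can also pair with each other, and Atf3 and Batf3 are related subunits that pair with Jun proteins. Many of these genes are immediate early genes, transcribed within minutes of serum, growth factor or cAMP signals, and AP-1 sites are common in the enhancers of fibroblasts. Forskolin, which activates adenylate cyclase, raises cAMP, and the Fos promoter is a classic cAMP-responsive one.

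The promoters of 5 members are shown first, because they hold letters of the cAMP response element or AP-1-like letters (Fos, Atf3, Jun), hold TATAAA and CAGCTG as Fos does (Junb), or lie outside every interval (Jund). Each runs 5′ to 3′ on the coding strand, from 250 bases before the annotated start site to 50 bases from that site on, and was taken from the RefSeq promoter table for GRCm38.p6. The table held 8 of the 9 genes, all but Fosl1. Capitals mark TGACGT, 6 letters of the cAMP response element, TATAAA, the E-box letters CAGCTG, and the AP-1-like letters TGACATCA and TTACCTCA of Jun. In Atf3 the capitals ACGTCA are TGACGT read on the other strand. The windows are chr12:85473640-85473939 on the plus strand (Fos), chr4:95052173-95052472 on the minus strand (Jun), chr8:84978699-84978998 on the minus strand (Junb), chr1:191183284-191183583 on the minus strand (Atf3) and chr8:70697489-70697788 on the plus strand (Jund).
Fos: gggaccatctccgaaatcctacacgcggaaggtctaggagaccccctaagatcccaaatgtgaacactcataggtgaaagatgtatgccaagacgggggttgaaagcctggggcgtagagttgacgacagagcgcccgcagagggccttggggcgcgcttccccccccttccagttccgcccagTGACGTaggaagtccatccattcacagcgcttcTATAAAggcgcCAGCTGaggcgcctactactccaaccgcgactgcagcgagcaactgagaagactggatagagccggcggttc
Jun: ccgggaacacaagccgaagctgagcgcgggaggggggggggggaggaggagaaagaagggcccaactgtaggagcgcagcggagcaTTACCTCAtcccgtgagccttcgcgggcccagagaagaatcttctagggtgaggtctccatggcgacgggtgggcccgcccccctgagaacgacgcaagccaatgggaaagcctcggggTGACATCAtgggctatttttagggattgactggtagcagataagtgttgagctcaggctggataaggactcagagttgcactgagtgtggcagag
Junb: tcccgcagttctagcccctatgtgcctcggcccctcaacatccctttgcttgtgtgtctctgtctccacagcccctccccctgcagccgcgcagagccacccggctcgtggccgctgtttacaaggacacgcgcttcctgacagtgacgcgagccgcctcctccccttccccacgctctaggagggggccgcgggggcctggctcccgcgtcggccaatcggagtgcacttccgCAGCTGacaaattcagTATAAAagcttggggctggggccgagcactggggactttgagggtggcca
Atf3: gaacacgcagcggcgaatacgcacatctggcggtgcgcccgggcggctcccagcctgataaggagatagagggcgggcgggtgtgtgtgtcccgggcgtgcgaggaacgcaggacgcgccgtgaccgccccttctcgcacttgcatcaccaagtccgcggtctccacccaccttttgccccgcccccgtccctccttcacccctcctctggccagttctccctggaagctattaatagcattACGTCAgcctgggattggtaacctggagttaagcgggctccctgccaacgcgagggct
Jund: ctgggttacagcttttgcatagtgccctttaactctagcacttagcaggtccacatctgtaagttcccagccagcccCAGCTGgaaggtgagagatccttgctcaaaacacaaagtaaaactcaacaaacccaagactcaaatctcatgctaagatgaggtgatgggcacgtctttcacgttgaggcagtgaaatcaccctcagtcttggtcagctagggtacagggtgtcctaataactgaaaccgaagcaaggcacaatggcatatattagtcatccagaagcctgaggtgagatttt

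Intervals lay over the promoters of 7 of the 8 members in the table, against 66.5% of the 21230 promoters of protein-coding genes. The promoters of Fos, Fosb, Jun, Atf3 and Batf3 were covered from end to end, which held for 54.2% of all promoters. That of Junb was covered over 97.7% and that of Fosl2 over 45.3% of its 300 bases, and that of Jund was not covered. The Jund window rests on the RefSeq start site, which may not be the main start site of the gene in these cells. This was not tested, and the values of that window describe the annotated position only. It held 3 CpG dinucleotides and 46.7% G and C, whereas the other 7 held 15 (Jun) to 34 (Batf3) CpG and 58.7% (Fos) to 75.7% (Batf3) G and C. Over all promoters the medians were 13 CpG and 56.3%. Of the 5082 promoters with no more than 3 CpG, 15.4% had an interval.

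The letters of the cAMP response element stood close to the Fos and Atf3 start sites. Motifs were searched on both strands of the 300-base windows, and a match describes letters and not a bound site. TGACGT and CAGCTG were added to the search after the promoters were seen, so their presence there is not a separate result. TGACGT began 66 bases before the Fos start site, and on the other strand its match began 8 bases before that of Atf3. It was present in 8.49% of all promoters, and the whole palindrome TGACGTCA (2.24% of all promoters) was in none of the 8. In Fos, TATAAA followed 33 bases before the start site and CAGCTG 22 bases before it. CAGCTG, an E-box form bound by myogenic factors, overlaps the general E-box CANNTG and was also found in Junb, 16 bases before the start site, and in Jund, 173 bases before it. It stood in 15.6% of all promoters. CANNTG itself was in 7 of the 8, all but Fosl2, against 69.0% of all promoters.

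Jun, which regulates its own gene, carried both of its AP-1-like elements in the window. Both were searched as known elements of Jun, TTACCTCA after the promoters were seen, so their presence there is not a separate result. TGACATCA began 45 bases and TTACCTCA 164 bases before the Jun start site. They stood in 3.66% and 0.735% of all promoters. Neither was in another member. The canonical AP-1 site TGANTCA (6.99% of all promoters) and the CArG box, the binding letters of serum response factor (1.53%), were in none of the 8 windows. Sequence upstream of the windows was not searched, so a site of either kind further from a start site would have been missed. The start-site interval of Fos reached further upstream than its window, and that part of it was not searched either. TATAAA was in the windows of Fos and Junb, against 12.6% of all promoters, and in Junb it began at the annotated start base itself. No start site was checked in these cells, so the distances of all motifs refer to annotated positions.

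**Figure D1:**
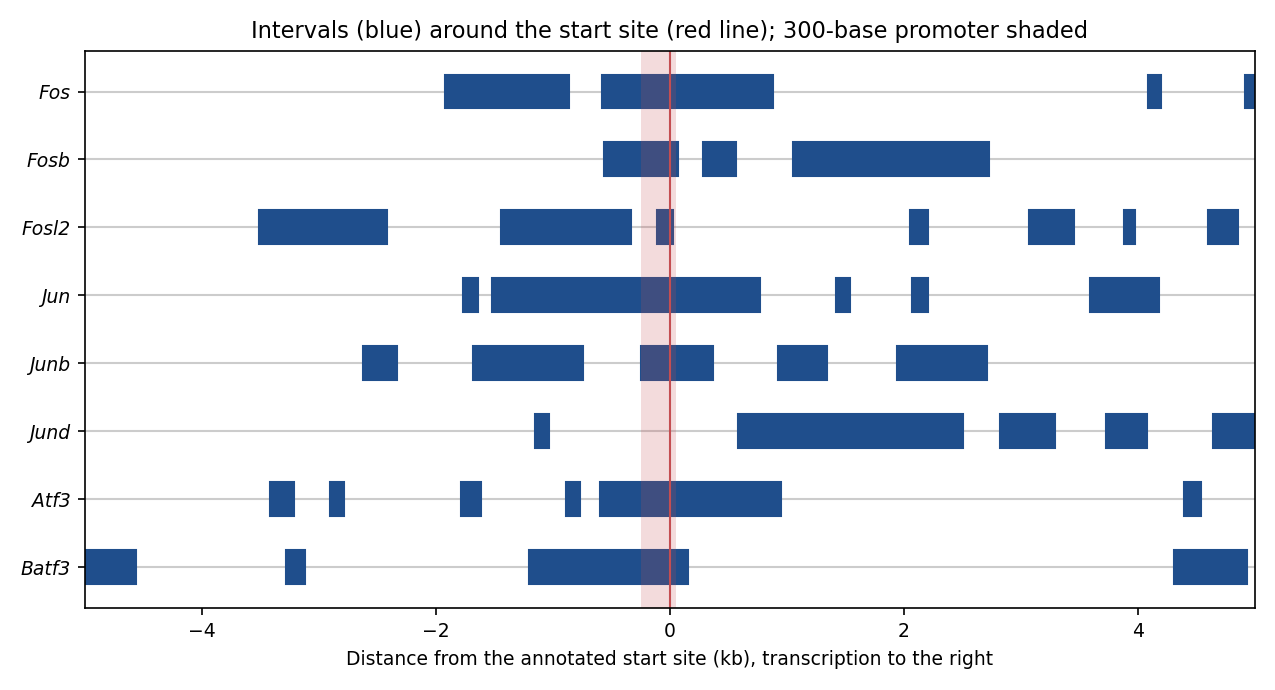
Intervals within 5 kb of the annotated start site of the 8 genes with a promoter entry, drawn to scale with transcription to the right. An interval covers the start site in every row but that of Jund, where a 1923 bp interval begins 580 bp downstream of a RefSeq start site that may not be the main one.

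All 9 genes had an accessible gene end. An interval lay within 1 kb of an end of each (9 of 9, against 74.7% of 21887 protein-coding genes), and it was at least 600 bp wide in each (9 of 9, against 64.7%). The widest such interval measured 2289 bp at Jun, 2033 bp at Fosb, 1923 bp at Jund, 1697 bp at Fosl1, 1556 bp at Atf3, 1465 bp at Fos, 1360 bp at Batf3, 1116 bp at Fosl2 and 939 bp at Junb. The quartiles over all genes with an end interval were 883 and 1611 bp. Jun, Fosb, Jund and Fosl1 thus lay above that range and the other 5 inside it. At Fosl1 the widest end interval lay over Ccdc85b, a gene that overlaps the end of Fosl1, and not over Fosl1 itself.

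The surroundings of the 9 genes were also rich in intervals. The median over them was 31.4 intervals per 100 kb of window and 17.0% of the window covered, against 18.0 per 100 kb and 8.86% over all protein-coding genes measured in the same way. All 9 lay above both medians. Of the 9, 7 lay above the upper quartile of all genes in intervals per 100 kb (24.3) and 8 above that in cover (12.7%). Jund lay just under the first of these limits, and Batf3 just above the second.

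**Figure D2:**
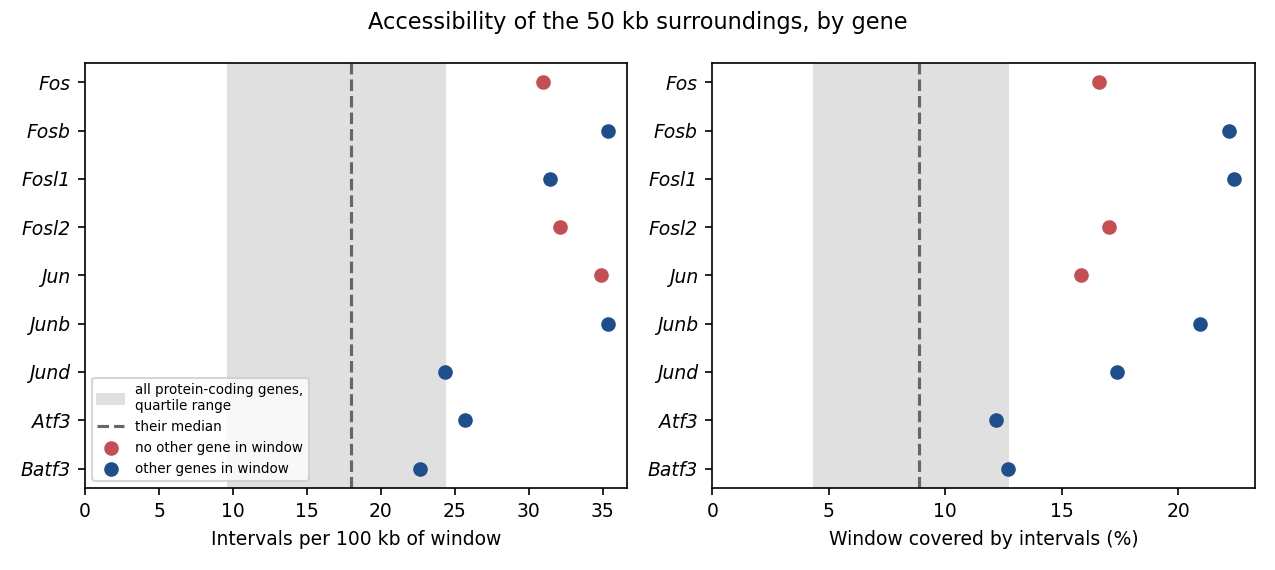
Intervals per 100 kb of window (left) and percent of the window covered (right) for each gene with 50 kb on both sides, on a linear scale from 0. Fos, Fosl2 and Jun, whose windows hold no other protein-coding gene, lie above the quartile range of all protein-coding genes in both panels.

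Windows with many gene ends hold more promoters, and the 9 genes differ widely in this. No other protein-coding gene lay in the windows of Fos, Fosl2 and Jun, 1 lay in that of Atf3, 2 in that of Batf3, 5 in that of Jund, 7 in that of Fosb, 8 in that of Junb and 11 in that of Fosl1. The highest cover, 22.4%, 22.2% and 20.9%, belonged to Fosl1, Fosb and Junb, the members with the most neighbours. In intervals per 100 kb Fosb (35.4) and Junb (35.3) were also highest, but Jun (34.9) and Fosl2 (32.1) stood above Fosl1 (31.4). A link between neighbours and either measure was not tested. Among the 2484 protein-coding genes with no other such gene in their window, the median was 9.34 intervals per 100 kb and 3.87% cover. Within that set Fos, Fosl2 and Jun stood at percentiles 97.9, 98.5 and 99.4 of intervals per 100 kb, and at percentiles 99.1, 99.2 and 98.6 of cover. This subset was chosen after the values were seen.

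**Figure D3:**
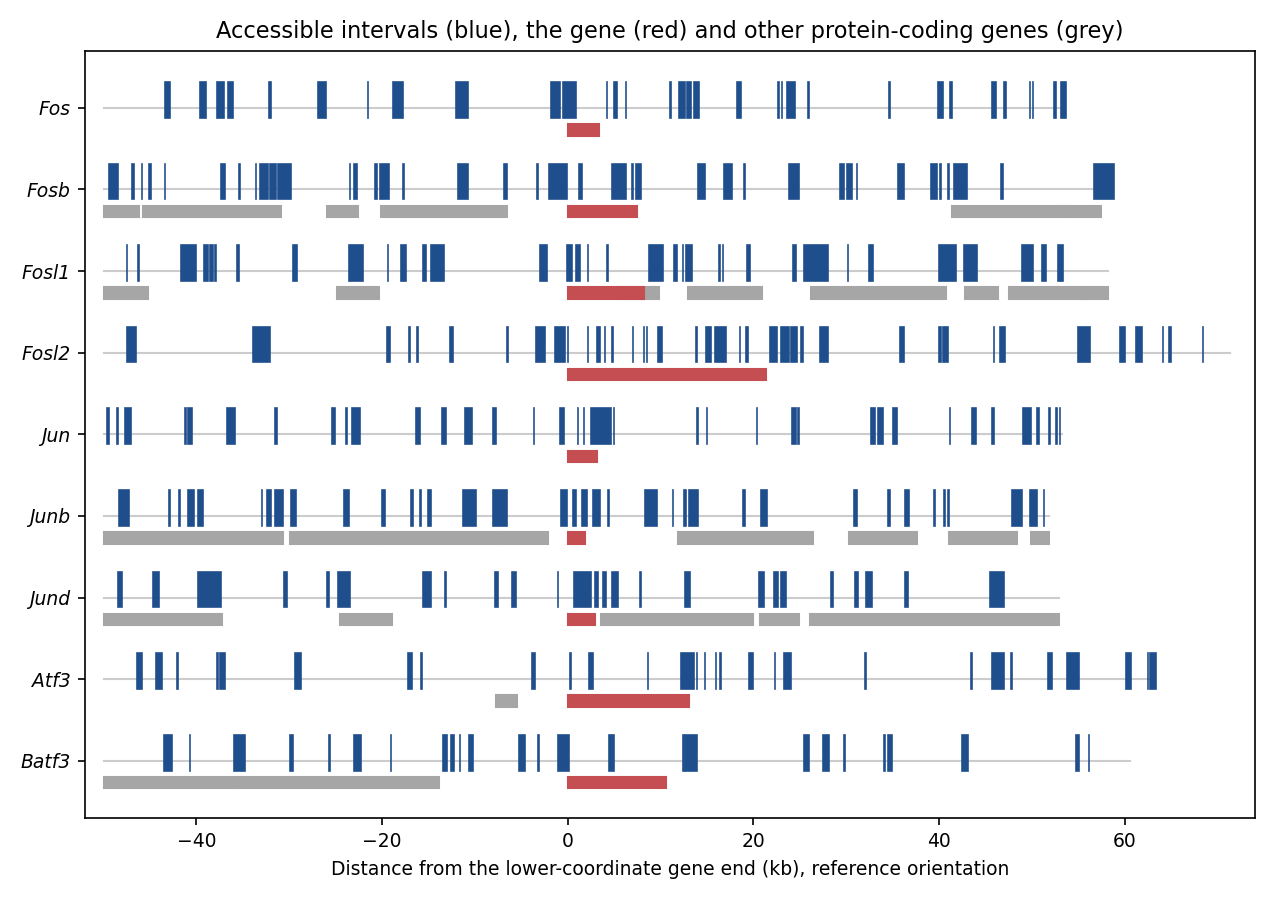
Every interval (blue, to scale) in the window of each gene (red), with other protein-coding genes in grey and distance in kb along the reference orientation. Fos, Fosl2 and Jun hold intervals on both sides without another protein-coding gene, while much of the Fosb, Fosl1, Junb and Jund windows is taken up by neighbours.

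Fos (gene ID 14281, chr12:85473890-85477274, plus strand), the founding member of its family and an immediate early gene, had 32 intervals in 103.4 kb, covering 16.6%. The widest, chr12:85473310-85474774 (1465 bp), ran from 580 bases before the start site into the gene. It was the only interval over Fos, and the rest of the gene body held none. Directly upstream, chr12:85471969-85473027 (1059 bp) ended 863 bases before the start site. The next upstream intervals were chr12:85461777-85463096 (1320 bp) and chr12:85454913-85456137 (1225 bp), 10794 and 17753 bases before it. Between the 1320 bp and the 1059 bp interval lay a stretch of 8872 bp free of intervals. Of the 10 upstream intervals 8 measured at least 600 bp, against 5 of the 21 downstream ones, of which the widest measured 938 bp. Over the longer stretch between the neighbouring genes, described next, the counts were 12 of 25 upstream and 11 of 37 downstream, with 4 and 3 of at least 1000 bp. Of the 32, 5 lay over non-coding genes only (Gm29709, Gm40477 and Gm38543) and 26 over no annotated gene.

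Several enhancers are known to act on Fos from a distance in other cell types. No coordinates for them were in the sources used here, so no interval was matched to one, and the whole stretch between the neighbouring protein-coding genes was described in their place. That stretch runs 223.9 kb from Tmed10, a cargo receptor gene, to Jdp2, which encodes another AP-1 subunit. It held 63 intervals covering 13.6%, of which 31 lay beyond the 50 kb limit. Both sides were alike in cover, with 25 intervals and 13.7% in the 99.17 kb upstream of the Fos start site and 37 intervals and 13.6% in the 124.8 kb downstream. The outermost intervals, of 1411 bp and 1738 bp, spanned the Tmed10 and Jdp2 gene ends. Between those, the widest outside the 50 kb window was chr12:85532308-85533935 (1628 bp), which is wider than the interval at the Fos start site.

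The intervals of this stretch were uneven along it. In bins of 10 kb counted from the Fos start site, with each interval placed by its midpoint, interval widths added up to 27.3% of the bin from 50 to 60 kb downstream and 25.9% of that from 10 to 20 kb downstream. On the other side they made up 25.4% of the bin from 10 to 20 kb upstream and 24.9% of that from 30 to 40 kb upstream. No interval had its midpoint from 60 to 70 kb upstream or from 80 to 90 kb downstream. A run of 4 intervals lay 10906 to 14125 bases downstream of the start site, and 3 intervals of 677 to 852 bp ended 36041, 37011 and 39002 bases upstream.

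**Figure D4:**
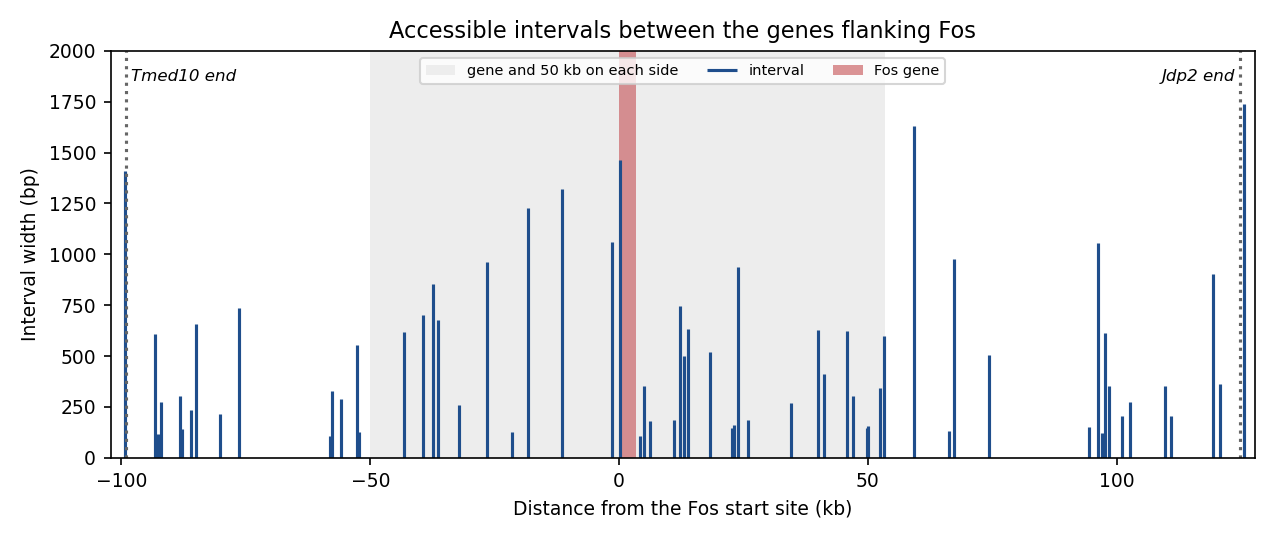
Width in bp of each interval between Tmed10 and Jdp2 against its distance in kb from the Fos start site, with the 50 kb window shaded. The widest intervals stand at the Fos start site (1465 bp), at both flanking gene ends, and near 60 kb downstream (1628 bp).

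Fosb (gene ID 14282, chr7:19302696-19310118, minus strand), which encodes a Fos protein with a well-known long-lived splice form in neurons, had the highest density of the 9 genes, just ahead of Junb. Its window of 107.4 kb held 38 intervals (35.4 per 100 kb), covering 22.2%. The interval at the start site was modest, chr7:19309977-19310612 (636 bp), and 2 wider ones lay further along. Within the gene, chr7:19307316-19308995 (1680 bp) began 1050 bases downstream of the start site, and chr7:19300568-19302600 (2033 bp) lay 96 bases beyond the far gene end, over the non-coding gene Gm26802. The widest of the window, chr7:19359245-19361482 (2238 bp), joined the ends of Cd3eap and Ppp1r13l. In all, 13 of the 38 intervals lay at the ends of other protein-coding genes, and 19 lay over other protein-coding genes, among them Vasp, Rtn2, Ppm1n and Ercc1. Upstream, between Fosb and Ercc1, 4 intervals of 807 to 1194 bp lay at 6559, 9394, 16392 and 28102 bases from the start site.

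Fosl1 (gene ID 14283, chr19:5447698-5455938), which encodes Fra-1, a Fos protein prominent in proliferating and migrating cells, had 34 intervals and the highest cover, 22.4% of 108.2 kb. The 4 intervals over the gene measured 145 to 617 bp, and chr19:5447510-5448126 (617 bp) spanned its lower end. The 3 widest of its window, of 2685, 1894 and 1697 bp, lay at the ends of Efemp2, of Mus81 and Cfl1, and of Ccdc85b, the last of which is also within 1 kb of the Fosl1 end. Outside protein-coding genes, chr19:5405939-5407602 (1664 bp) lay over the non-coding gene 4930481A15Rik, and chr19:5432834-5434382 (1549 bp), 13316 bases from Fosl1, lay over no gene. Another interval of 882 bp lay 2248 bases from the lower gene end. Ccdc85b, Fibp, Ctsw and Efemp2 were the nearest of its 11 neighbours.

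Fosl2 (gene ID 14284, chr5:32136472-32157840, plus strand), which encodes Fra-2, is the longest of the 9 genes at 21.4 kb and had the most intervals, 39 in 121.4 kb, covering 17.0%. Of these, 14 lay over the gene itself, more than in any other member, a count not adjusted for gene length. They covered 21.4% of the gene body, less than at Fos, Fosb, Jun, Junb and Jund. The interval over its start site was narrow, chr5:32136363-32136498 (136 bp). It followed a wider one, chr5:32135026-32136141 (1116 bp), that ended 331 bases before the start site. The widest was chr5:32102434-32104433 (2000 bp), 32039 bases upstream over no annotated gene, followed by chr5:32191344-32192715 (1372 bp) beyond the far end and chr5:32152180-32153477 (1298 bp) within the gene. Just beyond the far end, 5 intervals of 270 to 980 bp followed each other, beginning 318 to 5727 bases past the gene. The part upstream was sparser, with 9 intervals, against 29 downstream of the start site, where the window also takes in the gene body.

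Jun (gene ID 16476, chr4:95049036-95052222, minus strand), the central partner of the Fos proteins, had the widest start-site interval of the family. That interval, chr4:95051452-95053740 (2289 bp), was also the only one of at least 1000 bp among the 36 in its window of 103.2 kb. Jun had 34.9 intervals per 100 kb, near Fosb and Junb, but a lower cover than those, 15.8%, at percentile 90.5 of all genes. The median width of its intervals, 363.5 bp, was the lowest of the members, though above the 336 bp over all intervals. The next widest were chr4:95097947-95098940 (994 bp), 45725 bases upstream, and chr4:95025718-95026660 (943 bp), 25562 bases downstream. All 17 upstream intervals lay over Junos, a non-coding gene that begins beside Jun, and 7 downstream ones lay over the non-coding gene Gm12694.

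Junb (gene ID 16477, chr8:84976909-84978748, minus strand), a Jun protein that often restrains growth, is the shortest gene, at 1.84 kb. It had 36 intervals, covering 20.9% of 101.8 kb. The interval at its start site, chr8:84978383-84978991 (609 bp), stood between chr8:84979491-84980429 (939 bp), 743 bases upstream, and chr8:84976035-84976805 (771 bp), just beyond the far gene end. The 3 widest of the window were chr8:84968781-84970307 (1527 bp) at the ends of Rnaseh2a and Prdx2, chr8:84965564-84967040 (1477 bp) within Rnaseh2a, and chr8:84985089-84986537 (1449 bp), which lay 6341 bases upstream over no gene. Of the 36, 12 lay at the ends of other protein-coding genes and 27 over other protein-coding genes, with Prdx2, Rnaseh2a, Hook2 and Rtbdn the nearest.

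Jund (gene ID 16478, chr8:70697739-70700616, plus strand), the Jun protein that is less dependent on acute signals, lies on the same chromosome as Junb, 14276293 bp away. It had 25 intervals in 102.9 kb, 24.3 per 100 kb, covering 17.4%. No interval touched its RefSeq start site, which, as said for the promoter window, may not be its main one. The interval chr8:70698319-70700241 (1923 bp) began 580 bases downstream of that site and took up most of the gene, and with its neighbour chr8:70700563-70701028 (466 bp) covered 68.7% of the gene body. Jund stood at percentile 99.0 of all genes in gene-body cover, the highest of the 9. Its gene is short, at 2.88 kb against a median of 17170 bp over all protein-coding genes. A single interval can fill much of a short gene, and the percentile was not adjusted for length. The widest of the window were chr8:70657823-70660380 (2558 bp) at the end of Pgpep1 and, after that at Jund, chr8:70743069-70744697 (1629 bp) within the phosphodiesterase gene Pde4c. Iqcn, Gm3336, Lsm4 and Pde4c were the nearest of 5 neighbours.

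Atf3 and Batf3 lie 61.4 kb apart on chromosome 1, and their windows shared 8 intervals. Atf3 (gene ID 11910, chr1:191170296-191183333, minus strand), a stress-induced subunit, had 29 intervals covering 12.2% of 113.0 kb, the lowest cover of the 9. Its start-site interval, chr1:191182380-191183935 (1556 bp), was the widest, followed by chr1:191215887-191217230 (1344 bp) and chr1:191223979-191225316 (1338 bp), 32554 and 40646 bases upstream. Those upstream were 16 in number, against 12 downstream, and Fam71a was the only other protein-coding gene.

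Batf3 (gene ID 381319, chr1:191098414-191108943, plus strand), known for its part in the development of dendritic cells, had 25 intervals, the lowest density at 22.6 per 100 kb, covering 12.7% of 110.5 kb. Its start-site interval, chr1:191097208-191098567 (1360 bp), lay mostly upstream of the gene. A wider one, chr1:191110933-191112361 (1429 bp), lay 1990 bases beyond the far gene end, and chr1:191062324-191063674 (1351 bp) joined the ends of Tatdn3 and Nsl1. Over the gene body only 7.39% was covered, at percentile 44.1 of all genes.

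Over the 286 intervals together, widths were larger than in the whole set. The median was 474.5 bp, against 336 bp over all 323483 intervals. Of the 286, 106 (37.1%) measured at least 600 bp, against 25.5% of all intervals, and 44 (15.4%) at least 1000 bp, against 8.71%. This difference was not tested, and interval widths near genes and elsewhere were not compared.

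The genes around AP-1 in its pathway were measured in the same way. Of 18 upstream regulators, 18 carried an interval of 600 bp or more at a gene end, against 64.7% of all protein-coding genes, and their median window had 23.1 intervals per 100 kb and 11.2% cover. Mrtfa (34.5 intervals per 100 kb), an actin-regulated cofactor of serum response factor, Srf itself (34.1) and the ETS partner gene Elk3 (32.4) were the densest. The cAMP-responsive regulator Crem (8.75), Elk1 (10.2) and the kinase gene Rps6ka3 (10.3) were the sparsest. Elk1 and Rps6ka3 lie on the X chromosome and Crem does not, and a link between chromosome and density was not tested. Cover above the upper quartile of all genes was found for 6 of the 18, against 8 of the 9 Fos, Jun, Atf3 and Batf3 genes.

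Other basic leucine zipper genes had a lower median cover than the 9. The 12 relatives and partners had a median of 21.5 intervals per 100 kb and 10.3% cover, and 3 of 12 lay above the upper quartile in cover. A gene-end interval of 600 bp or more was found at 9 of the 12. Mafk (34.2 intervals per 100 kb), a small Maf protein gene, Jdp2 (30.4) and Atf7 (29.1) were the densest, and Maf (16.4), Atf2 (15.3) and Mafg (10.0) the sparsest. Mafg had no interval within 1 kb of either annotated end. Jdp2, the neighbour of Fos, had an end interval of 1738 bp.

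Genes reported as AP-1 targets ran from 9.99 to 40.9 intervals per 100 kb. Their 15 windows had a median of 29.1 intervals per 100 kb and 14.3% cover, with 8 of 15 above the upper quartile in cover. A gene-end interval of 600 bp or more was found at 14 of 15, against 64.7% of all protein-coding genes. Cd44 (40.9 intervals per 100 kb), a hyaluronan receptor gene, Plau (35.6), which encodes urokinase, and the intermediate filament gene Vim (33.2) were the densest, and Mmp3 (9.99), Il6 (14.0) and Mmp10 (16.7) the sparsest. The 16 other immediate early genes had a median of 27.7 per 100 kb and 13.6% cover, with 10 of 16 above that quartile and 15 of 16 with such a gene-end interval. Among them the phosphatase gene Dusp1 (35.0), Ier2 (34.5) and Klf6 (34.0) were the densest, and the orphan nuclear receptor genes Nr4a2 (10.2) and Nr4a3 (14.9) and Myc (15.2) the sparsest. Maff was in this list and among the relatives. The lists differ in gene length and in the number of neighbours, and differences between them were not tested.

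**Figure D5:**
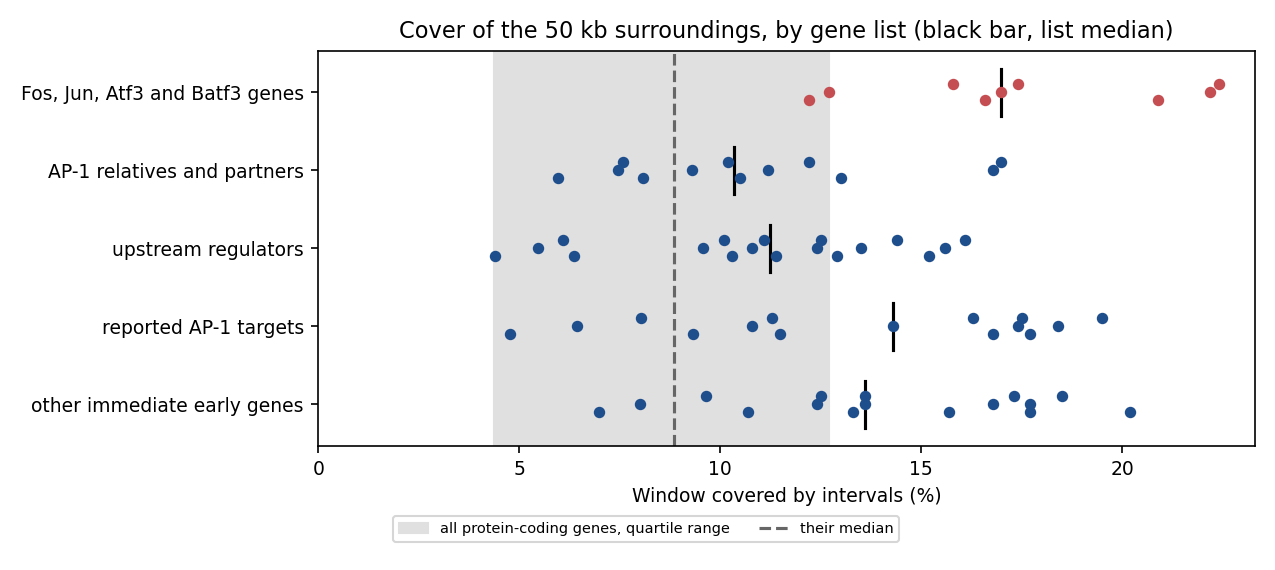
Percent of the window covered by intervals for each gene of 5 lists, on a linear scale from 0, with the list median as a black bar and the quartile range of all protein-coding genes in grey. The Fos, Jun, Atf3 and Batf3 genes run from 12.2 to 22.4% with a median of 17.0%, and the other 4 list medians lie between 10.3 and 14.3%.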

How the data were processed

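ATAC-seq intervals from 6 libraries, 2 in each of 3 groups, were described. BWA, MACS2, DESeq2 and GRCm38.p6 are named in the submitters' processing notes, with no version and no role. The authors annotated consensus peaks with HOMER (annotatePeaks, GRCm38.p6, GENCODE vM23), per the file headers. Settings for peak calling, joining and filtering: not given in the sources used here. In every row the deposited score is 0, the deposited positions are the only other values, and no column belongs to a library or group. Tests between groups and depths were therefore not analysed here.

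Windows ran from 50 kb below to 50 kb above each RefSeq gene (GRCm38.p6), with an overlap of at least 1 bp. Percentiles and medians are over 21887 protein-coding genes on the assembled chromosomes. Start sites and promoters came from the RefSeq promoter table of the same build. Window counts were checked on 300 windows of made-up intervals. A comparison of the proteins was planned and not run, as no protein sequences were used here. Members and lists were chosen with earlier results of these data known, and 3 of the motifs (the cAMP element core, the myogenic E-box and the distal Jun element) after the promoters were seen. Named genes were the 9 members, up to 4 nearest neighbours, the 3 widest intervals per window, and per list the 3 densest, the 3 sparsest and those without an end interval. Other genes and intervals were named after their values were seen. Alternatives covered window size, overlap, interval width, gene-end distance, neighbouring ends and background. Python 3.11.15, numpy 2.4.6, pandas 2.3.3 and matplotlib 3.10.9 were used.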

Additional observations from a re-analysis of the deposited data

How the results depend on the processing

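The median density of the 9 genes stayed within 1.5 times of 31.4 intervals per 100 kb with windows of 10 or 100 kb, with midpoints for overlaps, and without intervals at the ends of other protein-coding genes (23.6). It was 20.3 with intervals of at least 300 bp only and 10.7 with those of at least 600 bp only, against 10.2 and 4.95 over all protein-coding genes, as fewer intervals remain by construction. The median cover was 20.8% with 10 kb windows, 14.8% with 100 kb windows, 14.7% with intervals of at least 300 bp, 11.7% with those of at least 600 bp and 13.5% without intervals at other gene ends. Over all protein-coding genes the first 4 of these were 9.43%, 8.69%, 7.37% and 5.01%. For the setting without intervals at other gene ends, neither density nor cover was computed over all protein-coding genes. With all genes of the table as the background, its medians were 16.1 per 100 kb and 7.61%. All 9 genes had an end interval at 500 bp, 2 kb and 5 kb, against 70.3%, 78.9% and 82.9% of all protein-coding genes. Without intervals at other gene ends, only Fosb changed its count by more than 1.5 times, to 25 intervals. No paired analysis was possible because the intervals carry no values for libraries, and for the same reason no library could be left out. Interval widths depend on how peaks were joined, and depth is unknown.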
